A study of Drosophila melanogaster with 6 samples.

Results

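The genes of the DNA replication machinery were 37 symbols, listed by their role at origins and forks. Of these, 36 were matched to one of the 17559 genes in the count table and 35 were among the 7965 genes tested. *Mcm3* was not matched to a gene and is not analysed here. *dUTPase* was matched but had 0 reads in all 6 libraries. In knockdown discs *RPA1*, *RfC4*, *RnrL*, *Orc1* and *RPA2* were called higher, which is 5 of the 35 tested genes beside 15.6% of all genes tested. By the same edgeR test 0 of the 35 were called lower, beside 11.0% of all genes tested.

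RNA was compared between wing imaginal discs of late larvae, the epithelial sacs that form the adult wing and thorax. Knockdown larvae carried UAS-Nup98 RNAi (line HM05048), a hairpin against *Nup98-96*, the gene that encodes nucleoporins 98 and 96. Control larvae carried UAS-white RNAi (line JF01540), against the eye colour gene *w*. Both genotypes also held 1 copy each of UAS-P35, *ap*-Gal4 with UAS-GFP, and *tub*-Gal80TS, a temperature-sensitive repressor of Gal4. Larvae were held at 18 °C for 4 days with Gal4 repressed and then at 28 °C for 72 h. *ap*-Gal4 acts in the dorsal compartment, so that undriven ventral cells were part of every sample, and P35, a baculovirus inhibitor of caspases, was present in both groups. A library was polyadenylated RNA of 40 pooled discs, with 3 libraries per group, so that p-values measure only the spread between these pools.

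Replication starts where the origin recognition complex (ORC) binds DNA. Cdc6 and Cdt1 then load the ring-shaped MCM helicase in G1, a step that geminin blocks at other times. Cdc45 and the GINS complex turn MCM into an active helicase, replication protein A (RPA) coats the single strands, and polymerase alpha with primase starts each new strand. Replication factor C (RFC) loads the sliding clamp PCNA, which holds polymerases delta and epsilon on DNA, and chromatin assembly factor 1 (CAF-1) deposits histones behind the fork. Ribonucleotide reductase and thymidylate synthase supply the deoxynucleotides. In flies E2F with its partner Dp drives many of these genes at the entry into S phase, and cells of the wing disc divide through most of larval life.

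Libraries held 70342787 to 100205246 counts in knockdown discs and 93428696 to 110330112 counts in control discs. Levels are CPM, the counts of a gene scaled to a common library total, after TMM scaling, which corrects for composition. The RNAi target *Nup98-96* was at 318, 303 and 314 CPM in knockdown libraries and 330, 334 and 314 CPM in control libraries. It was not called, at a log2 fold change of -0.06 ± 0.04 (standard error). Reads of the hairpin and of the gene itself cannot be told apart in these counts. *w* was at 862 to 1073 CPM in knockdown libraries and 483 to 571 CPM in control libraries. The 6 wing disc markers (*vg*, *nub*, *rn*, *ap*, *pdm2* and *Dll*) were all detected. They summed to 976 to 1003 CPM in knockdown libraries and 1415 to 1508 CPM in control libraries, with *vg*, *nub*, *pdm2* and *Dll* called lower. *ap* was lower by a smaller amount, -0.35 on the log2 scale. *rn* went the other way, with 231 to 246 CPM in knockdown discs against 216 to 220 CPM in control discs (0.13 on the log2 scale). Neither *ap* nor *rn* met the rule for a call. Control replicate 1 stood apart: its 6 fat body markers summed to 3469 CPM, against 50.5 to 85.8 CPM in knockdown libraries and 20.9 and 58.7 CPM in the other controls.

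Calls needed an adjusted p under 0.05 together with a log2 fold change of 0.5 or more in either direction, which is 1.41-fold. Log2 fold changes are given ± their standard error, with adjusted p-values from edgeR's quasi-likelihood test and Benjamini-Hochberg adjustment over all genes tested. The 30 replication genes that were neither higher nor lower by this rule are described as not called. DESeq2 and voom also called 5 higher and 0 lower, and 1 of the 35 was lower at an unadjusted p under 0.05. At an adjusted p under 0.05 at any fold, 15 members were higher, beside 34.1% of all genes, and 1 was lower, beside 31.7% of all genes. The 3 knockdown libraries lay above all 3 control libraries for 15 members, beside 37.7% of all genes, and below them for 1, beside 35.2%. The members' median log2 fold change was 0.17, against 0.01 for all genes tested. The lowest count of a tested member in any library was 651, so that none of the 35 passed the filter on low counts through 1 group alone.

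**Figure D1:**
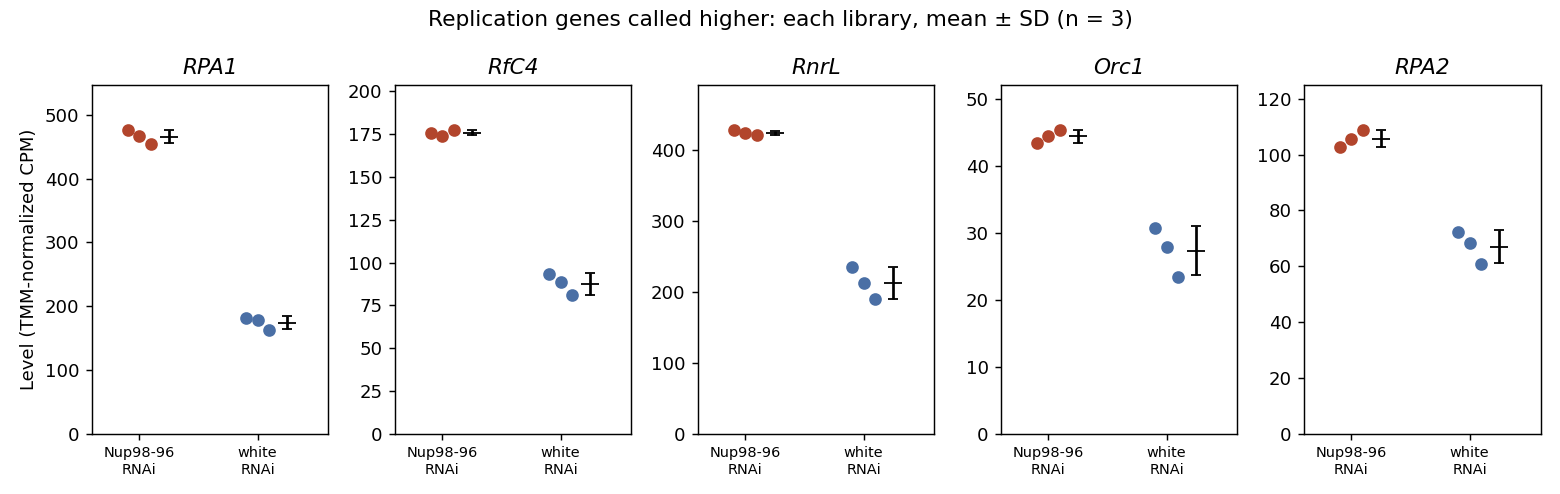
Level of the 5 called replication genes in each library, as TMM-normalized CPM on axes that start at 0. Points are libraries, crossbars the mean ± SD (n = 3 each), with Nup98-96 RNAi left of white RNAi. For each gene the 3 knockdown libraries lie above all 3 control libraries, by the widest margin for *RPA1*.

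*RPA1* (FBgn0010173; chromosome 3R of BDGP6, 8262120 to 8264451), the large subunit of RPA, had the highest log2 fold change of the members. Its level was 475, 467 and 454 CPM in knockdown libraries, against 182, 178 and 162 CPM in control libraries. That is 466 ± 10.6 CPM in knockdown discs and 174 ± 10.3 CPM in control discs (SD, n = 3 each), so that it was 2.67-fold higher (log2 fold change 1.42 ± 0.05, adjusted p = 1.66e-06). *RPA2* (FBgn0032906; chromosome 2L, 20924975 to 20926147), the middle subunit, was at 103, 106 and 109 CPM in knockdown libraries, against 72.2, 68.2 and 60.8 CPM in control libraries. It was higher by a log2 fold change of 0.66 ± 0.06 (adjusted p = 0.000144). The small subunit *RPA3*, which is not one of the 37, was at 94.2, 94.6 and 88.3 CPM in knockdown libraries and 46.5, 44.0 and 42.6 CPM in control libraries. It was higher by a log2 fold change of 1.06 ± 0.05 (adjusted p = 4.61e-06), so that each of the 3 subunits of RPA was higher in knockdown discs.

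*RPA1* and *Mcm2*, a subunit of the helicase, are neighbours on chromosome 3R that are transcribed away from each other, with 518 bases between them. *Mcm2* was at 148, 165 and 159 CPM in knockdown libraries, against 152, 134 and 124 CPM in control libraries. Its groups overlapped and it was not called (log2 fold change 0.20 ± 0.08, adjusted p = 0.0585), beside the log2 fold change of 1.42 of *RPA1*.

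Nucleotide supply held one called gene and the lowest log2 fold change of all the members. *RnrL* (FBgn0011703; chromosome 2L, 10325026 to 10327943), the large subunit of ribonucleotide reductase, was at 428, 425 and 422 CPM in knockdown libraries, against 236, 213 and 190 CPM in control libraries. It was 1.99-fold higher in knockdown discs (log2 fold change 1.00 ± 0.07, adjusted p = 4.14e-05). The small subunit *RnrS* was at 149, 157 and 157 CPM in knockdown libraries and at 202, 183 and 173 CPM in control libraries. All 3 knockdown libraries were thus below the controls for *RnrS*, with an adjusted p of 0.00665, but the log2 fold change of -0.27 ± 0.06 was smaller than the fold threshold. *Ts*, thymidylate synthase, which makes dTMP, was at 49.4, 52.0 and 49.7 CPM in knockdown libraries, against 41.0, 37.4 and 34.5 CPM in control libraries. Its groups did not overlap (log2 fold change 0.42 ± 0.07, adjusted p = 0.00123) and it was below the fold threshold. Exons of *Ts* overlap *Rbp9* on the other strand over 10.5% of their length, and counting was without strand. *dUTPase*, which removes dUTP, overlaps an antisense RNA, asRNA:CR45778, over 100% of its exons. The counts hold only reads assigned to a gene, so that 0 counts do not say that it was not expressed. A count of 0 allows up to 3 counts, or 0.0281 to 0.0425 CPM of assigned reads per library.

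The clamp loader had one called subunit. *RfC4* (FBgn0260985; chromosome 3L, 4134860 to 4136038), a small subunit of RFC, was at 176, 174 and 177 CPM in knockdown libraries, against 93.3, 88.4 and 80.8 CPM in control libraries. It was 2.01-fold higher in knockdown discs (log2 fold change 1.01 ± 0.05, adjusted p = 1.03e-05). The large subunit *Gnf1* was at 112, 114 and 118 CPM in knockdown libraries and 108, 106 and 98.8 CPM in control libraries, a log2 fold change of 0.14 ± 0.04 (adjusted p = 0.0255). The other small subunits did not pass the test, and their groups overlapped. *RfC3* had a log2 fold change of 0.03 (95% interval -0.14 to 0.20) and *RfC38* one of 0.04 (95% interval -0.08 to 0.16). Exons of *RfC38* overlap the nucleoporin gene *Nup160* on the other strand over 25.2% of their length. *PCNA*, the clamp, was at 254, 261 and 264 CPM in knockdown libraries, against 221, 198 and 185 CPM in control libraries. The groups did not overlap, with a log2 fold change of 0.37 ± 0.07 (adjusted p = 0.00227) below the fold threshold.

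In origin recognition 3 of 4 genes had an adjusted p under 0.05, each higher in knockdown discs, and 1 was called. Of all genes tested, 34.1% were higher and 31.7% lower at that adjusted p, and 15.6% were called higher. *Orc1* (FBgn0022772; chromosome 2R, 7522437 to 7525716), the largest ORC subunit, was at 43.5, 44.6 and 45.3 CPM in knockdown libraries, against 30.7, 27.9 and 23.4 CPM in control libraries. It was higher by a log2 fold change of 0.70 ± 0.09 (adjusted p = 0.000599), and in edgeR's glmTreat, a test against a log2 fold change of 0.5 itself, the adjusted p was 0.0497. *Orc2* was at 33.5, 32.6 and 33.2 CPM in knockdown libraries, against 29.7, 24.9 and 20.9 CPM in control libraries, a log2 fold change of 0.40 ± 0.12 (adjusted p = 0.0214). Without control replicate 1 it was 0.52 with an adjusted p of 0.000645, so that *Orc2* was called and 6 members were higher. *Orc6* was at 9.27, 9.06 and 9.22 CPM in knockdown libraries and 7.95, 6.90 and 6.99 CPM in control libraries (log2 fold change 0.33 ± 0.08, adjusted p = 0.00816). *Orc5* was not past the test, with a log2 fold change of 0.13 (95% interval -0.08 to 0.35). *Orc4*, an ORC subunit that is not among the members, overlapped between the groups. Its log2 fold change was -0.0017 (95% interval -0.18 to 0.18).

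The genes that load and activate the helicase were not called. *Cdc6*, which loads MCM together with Cdt1, was at 21.7, 21.2 and 21.5 CPM in knockdown libraries, against 18.3, 17.7 and 14.6 CPM in control libraries. Its groups did not overlap (log2 fold change 0.35 ± 0.09, adjusted p = 0.00995). *dup*, the fly Cdt1, had a log2 fold change of 0.08 (95% interval -0.11 to 0.27), and its inhibitor *geminin* one of -0.06 (95% interval -0.20 to 0.09). Of the 5 MCM genes tested, 4 (*Mcm2*, *dpa*, *Mcm5* and *Mcm6*) had log2 fold changes of 0.14 to 0.20, and *Mcm7* had one of -0.12 (95% interval -0.37 to 0.14). *Mcm7* was at 21.8, 22.7 and 24.4 CPM in knockdown libraries and 28.8, 24.7 and 21.4 CPM in control libraries, so that the groups overlapped. An antisense RNA, asRNA:CR45871, covers 81.7% of the exon length of *Mcm7*. None of the 5 MCM genes had an adjusted p under 0.05, beside 34.1% of all genes tested higher and 31.7% lower at that value. Of the MCM genes 1, *Mcm2*, had an unadjusted p under 0.05. The helicase activators had the narrowest range of any role with more than 3 tested genes. *CDC45L* was at 68.4, 64.7 and 69.1 CPM in knockdown libraries and 69.1, 64.3 and 59.0 CPM in control libraries. The GINS genes *Psf1*, *Psf2*, *Psf3* and *Sld5* had log2 fold changes of -0.08 to 0.09, and the 95% intervals of all 5 activators lay within 0.5 of 0. Exons of *Psf3* overlap *CG17841* on the other strand over 34.9% of their length.

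**Figure D2:**
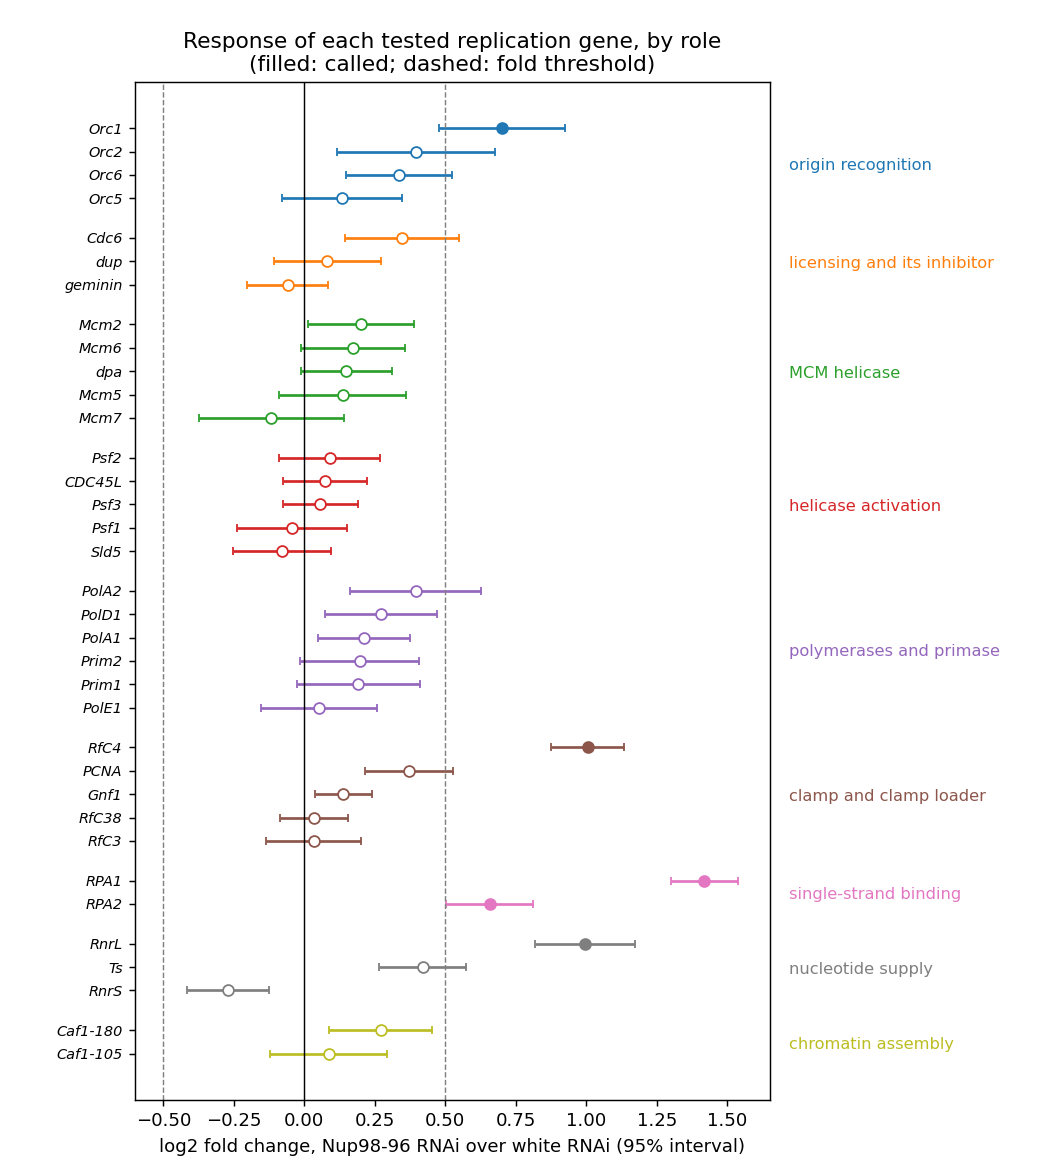
Log2 fold change of each of the 35 tested replication genes, Nup98-96 RNAi over white RNAi, with its 95% interval, grouped by role. Filled points are called, and dashed lines mark the fold threshold of 0.5 in either direction. The 5 filled points, 0.66 to 1.42, lie among RPA, nucleotide supply, the clamp loader and origin recognition, and *RnrS* has the lowest value, -0.27.

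Of the 6 polymerase and primase genes 3 had an adjusted p under 0.05, each higher in knockdown discs, and 0 were called. At that adjusted p 34.1% of all genes tested were higher and 31.7% lower, and 15.6% were called higher. *PolA2*, the accessory subunit of polymerase alpha, was at 25.6, 25.2 and 26.9 CPM in knockdown libraries, against 22.6, 19.3 and 17.1 CPM in control libraries (log2 fold change 0.39 ± 0.10, adjusted p = 0.0104). The catalytic subunit *PolA1* was at 108, 106 and 102 CPM in knockdown libraries, against 99.4, 91.5 and 82.2 CPM in control libraries (log2 fold change 0.21 ± 0.07, adjusted p = 0.0306). *PolD1*, the catalytic subunit of polymerase delta, was at 56.2, 53.2 and 53.5 CPM in knockdown libraries, against 50.4, 44.6 and 39.9 CPM in control libraries (log2 fold change 0.27 ± 0.08, adjusted p = 0.0239). For these 3 genes every knockdown library lay above every control library. Leaving out any one of knockdown replicates 1, 2 and 3 or control replicate 2 raised the adjusted p of both *PolA1* and *PolD1* above 0.05, to 0.0601 to 0.118 for *PolA1* and 0.058 to 0.0841 for *PolD1*. That of *PolA1* was also above 0.05 with library size only, filterByExpr or no filter (0.0533 to 0.0686). The primase subunits *Prim1* and *Prim2* had log2 fold changes of 0.19 and 0.20 with overlapping groups. *PolE1*, the catalytic subunit of polymerase epsilon, had a log2 fold change of 0.05 (95% interval -0.15 to 0.26).

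In chromatin assembly, *Caf1-180*, the large subunit of CAF-1, was at 115, 116 and 119 CPM in knockdown libraries, against 107, 98.1 and 85.6 CPM in control libraries. The groups did not overlap (log2 fold change 0.27 ± 0.08, adjusted p = 0.0179). *Caf1-105*, the middle subunit, overlapped between the groups, with a log2 fold change of 0.09 (95% interval -0.12 to 0.29).

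By role, the median log2 fold change was 1.04 for the RPA genes (2 genes), 0.42 for nucleotide supply (3), 0.37 for origin recognition (4) and 0.20 for polymerases and primase (6). It was 0.18 for chromatin assembly (2), 0.15 for the MCM helicase (5), 0.14 for the clamp and its loader (5), 0.08 for loading and its inhibitor (3) and 0.06 for helicase activation (5). Differences between roles were not tested. Called genes were found in RPA (2 of 2), nucleotide supply (1 of 3), the clamp and its loader (1 of 5) and origin recognition (1 of 4), and no other role held one. Of all genes tested, 15.6% were called higher. With 2 to 6 genes per role, these counts cannot set 1 role apart from another. Within the clamp and its loader the log2 fold changes spanned 0.03 to 1.01, and within nucleotide supply -0.27 to 1.00. Of the 30 members not called, 24 had a 95% interval inside the fold threshold in both directions, which included each of the 19 with an adjusted p of 0.05 or more. The study names *Orc1*, *RnrL* and *RfC4*, and DNA polymerase genes that it does not list, from these same libraries, so that the direction of these 3 genes and of any such polymerase is not independent evidence here. In these mixed discs fewer cells of a type and less RNA per cell cannot be told apart.

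Levels of different genes were compared per kilobase of exon (CPM per kb). The clamp *PCNA* was the most abundant of the members in both groups, at 243 ± 4.96 CPM per kb in knockdown discs and 188 ± 17.0 CPM per kb in control discs (SD, n = 3 each). In control discs *RnrS* (117 ± 9.24 CPM per kb) and *geminin* (95.3 ± 7.54) followed, with *RnrL* (82.7 ± 8.82), *RPA1* (81.6 ± 4.84) and *RfC4* (77.7 ± 5.58) within their spread of each other. In knockdown discs *RPA1* (218 ± 4.98 CPM per kb), *RnrL* (165 ± 1.21) and *RfC4* (156 ± 1.31) stood next after *PCNA*. The MCM genes *Mcm2*, *dpa*, *Mcm5* and *Mcm6* lay within 54.2 to 64.9 CPM per kb in knockdown discs and 47.2 to 57.7 CPM per kb in control discs, whereas *Mcm7* was at 9.38 CPM per kb in knockdown discs and 10.2 CPM per kb in control discs. Since the antisense RNA covers 81.7% of the exon length of *Mcm7* and counting was without strand, its level per kb is not comparable with those of the other MCM genes. *Orc1* was at 14.1 ± 0.301 CPM per kb in knockdown discs and 8.68 ± 1.17 CPM per kb in control discs, and *Cdc6* was the lowest member with reads in both groups, at 8.64 ± 0.108 CPM per kb in knockdown discs and 6.80 ± 0.795 CPM per kb in control discs.

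**Figure D3:**
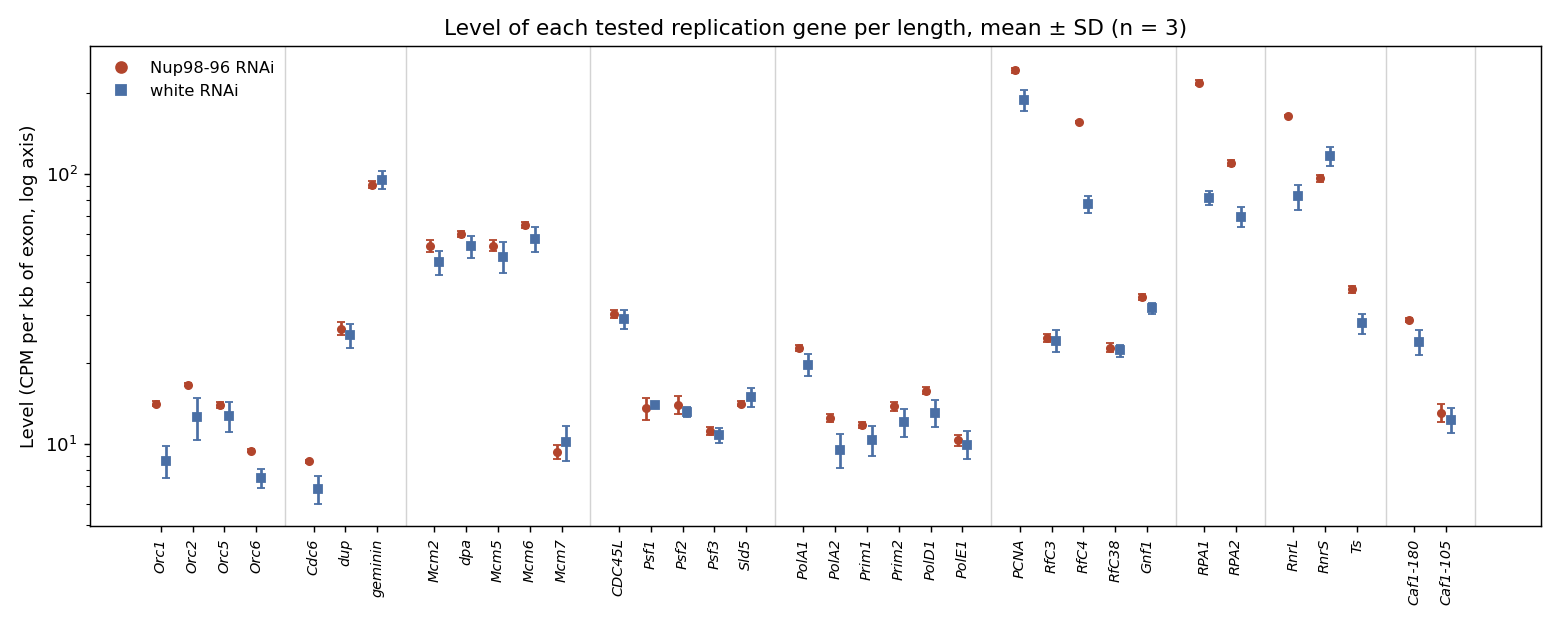
Level of each of the 35 tested replication genes as CPM per kb of exon on a log axis, mean ± SD (n = 3), with Nup98-96 RNAi (circles) left of white RNAi (squares) and roles separated by vertical lines. *PCNA* is highest in both groups, and *RnrL* lies above *RnrS* in knockdown discs but below it in control discs.

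Genes whose products share a complex or act on each other were compared by their ratio within each library, which needs no scaling. The log2 ratio of *RnrL* over *RnrS* counts was 1.52, 1.44 and 1.43 in knockdown libraries, against 0.23, 0.21 and 0.14 in control libraries, a difference of 1.27. The log2 ratio of *RfC4* over *RfC3* was 2.69, 2.64 and 2.61 in knockdown libraries, against 1.63, 1.70 and 1.70 in control libraries, a difference of 0.97. The difference of *RfC4* was likewise 0.97 over *RfC38* and 0.87 over *Gnf1*. Within RPA the differences were 0.76 for *RPA1* over *RPA2* and 0.36 for *RPA1* over *RPA3*, and within ORC 0.37 for *Orc1* over *Orc6* and 0.30 for *Orc1* over *Orc2*. The first gene of each of these 8 ratios was itself called higher, and *RfC4* is in several, so that their shifts are not independent of the calls. The 8 ratios, *dup* over *geminin* (0.14) and *Caf1-180* over *Caf1-105* (0.19) were above the controls in all 3 knockdown libraries. *PolA1* over *PolA2* (-0.19) was below them, while *Prim1* over *Prim2* (-0.0043) and *Psf1* over *Psf2* (-0.13) overlapped. Of single genes tested, 37.7% lay above all controls and 35.2% below them, so that groups without overlap were common. Ratios of other gene pairs were not computed. An exact two-sided permutation test of 3 against 3 libraries cannot give a p below 0.1, the value of the 11 pairs whose groups did not overlap, and the adjusted p over the 13 pairs was 0.118.

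**Figure D4:**
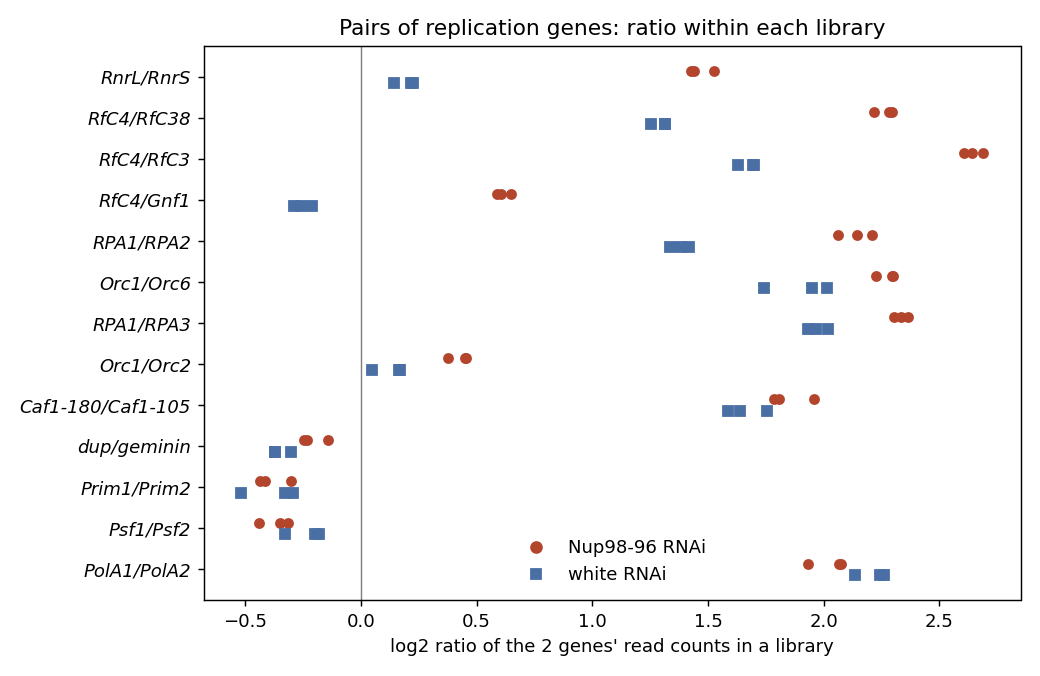
Log2 ratio of the read counts of 2 genes within each library for 13 pairs, with knockdown libraries (circles) drawn above control libraries (squares). The shift is largest for *RnrL* over *RnrS*, 1.27, and the groups of *Prim1* over *Prim2* and *Psf1* over *Psf2* overlap.

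The control libraries differed among themselves in these genes, a pattern that was looked at after the values were seen. Relative to the control mean, the median of the 35 members on the log2 scale was 0.14, 0.19 and 0.19 in knockdown replicates 1, 2 and 3, against 0.14, 0.00 and -0.14 in control replicates 1, 2 and 3. Of the 35 members, 34 had their highest control level in replicate 1 and 33 their lowest in replicate 3. Of all genes tested, 32.5% were highest in control replicate 1 and 33.7% lowest in control replicate 3. The members' median coefficient of variation was 2.80% among knockdown libraries and 9.51% among control libraries, beside 3.70% among knockdown libraries and 5.08% among control libraries for all genes tested.

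The knockdown mean was above control replicate 1 for 20 of 35 members (median log2 difference 0.02), above replicate 2 for 30 (0.16) and above replicate 3 for 33 (0.34). For all genes tested these median differences were 0.015, 0.015 and 0.021. At an adjusted p under 0.05 at any fold, 23 members were higher without control replicate 1. There the members' median log2 fold change was 0.24, against 0.0066 for all genes tested. Only 10 were higher without knockdown replicate 2, knockdown replicate 3 or control replicate 2, where *Orc2*, *PolA1*, *PolD1*, *Gnf1* and *Caf1-180* each lost the adjusted p. The count was 12 without knockdown replicate 1 and 14 without control replicate 3, beside 15 with all 6 libraries. With all 6 libraries 34.1% of all genes tested were higher in this way. That share with a library left out is not given here, so that a change over all genes cannot be told apart from one of the members. Without control replicate 3 the members' median was 0.09, against 0.00069 for all genes tested. In that fit 2 members were lower at an adjusted p under 0.05 at any fold, *RnrS* and *Mcm7* (-0.23, adjusted p = 0.0487). *RPA1*, *RfC4*, *RnrL*, *Orc1* and *RPA2* were called higher with each of the 6 libraries left out in turn, with log2 fold changes of 1.36 to 1.44 for *RPA1* and 0.59 to 0.78 for *Orc1*.

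**Figure D5:**
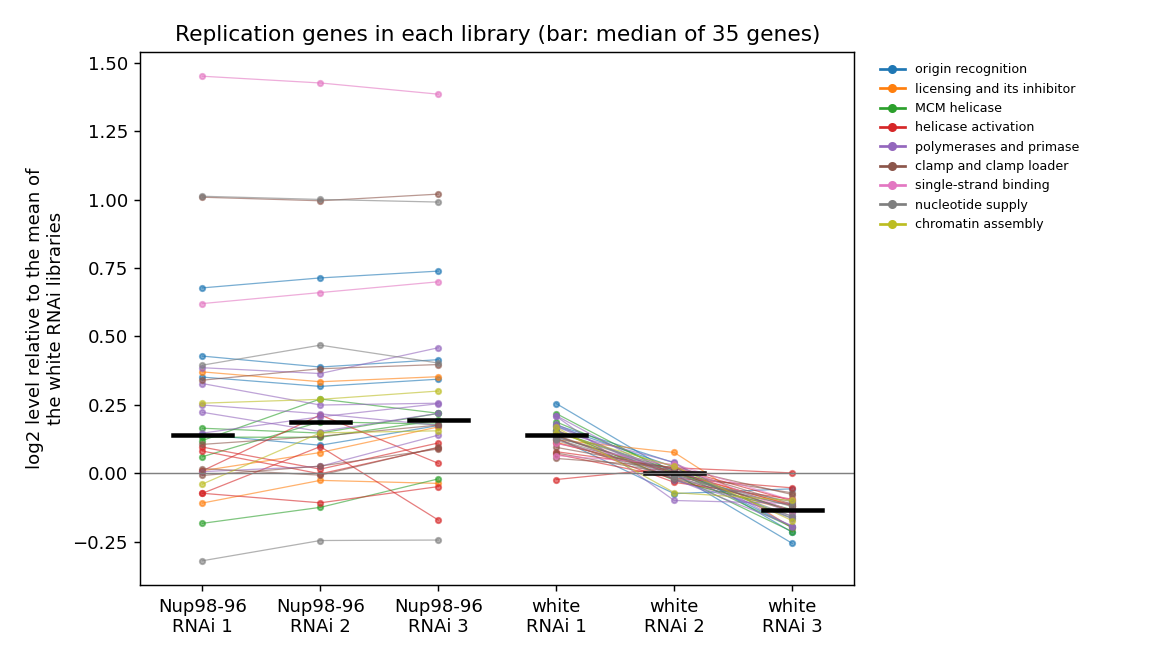
Level of each of the 35 tested replication genes in each library, as log2 relative to the mean of the 3 white RNAi libraries. Thin lines join the values of 1 gene within a group, coloured by role, and black bars are the median of the 35 genes, 0.14 to 0.19 in the knockdown libraries and 0.14, 0.00 and -0.14 in the controls.

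Markers of stage and of other cell types also varied between libraries. *ftz-f1*, which responds to the ecdysone cycle, was at 100.4, 110.3 and 112 CPM in knockdown libraries and 20.8, 11.4 and 5.15 CPM in control replicates 1, 2 and 3. *chinmo*, a gene of early larval stages, was at 752, 751 and 745 CPM in knockdown libraries and 39.5, 23.4 and 10.5 CPM in the controls. *ImpE2*, which ecdysone induces late, was at 13.1, 10.8 and 5.80 CPM in knockdown libraries and 3855, 5578 and 6784 CPM in the controls. Of the other stage markers, *Eip75B* was at 156 to 178 CPM in knockdown libraries and 280, 313 and 335 CPM in the controls. *br* was at 1114 to 1281 CPM in knockdown libraries and 2743, 3131 and 3035 CPM in the controls, and both were called lower. *Eip74EF* overlapped between the groups and was not called (log2 fold change -0.18, adjusted p = 0.0799). The 5 myoblast markers summed to 168 to 177 CPM in knockdown libraries and 236 to 263 CPM in controls, with *twi*, *Him* and *zfh1* called lower and *htl* overlapping between the groups. The 5 hemocyte markers summed to 16.5 to 32.3 CPM in knockdown libraries and 21.9 to 30.4 CPM in controls. *Hml* and *Pxn* overlapped, while *NimC1*, *He* and *eater* were lower in each knockdown library than in any control. Of all genes tested, 35.2% were lower in this way. *NimC1* (0.207 to 0.297 against 0.723 to 1.09 CPM) and *He* (0.198 to 0.299 against 0.618 to 1.11 CPM) were removed as low. *eater* was at 0.476 to 1.10 CPM in knockdown libraries and 1.26 to 2.21 CPM in controls. The 3 neuron markers summed to 83.1 to 84.8 CPM in knockdown libraries and 51.8 to 61.7 CPM in controls, with *nSyb* at 1.63 to 1.68 CPM in knockdown libraries and 0.658 to 0.899 CPM in controls. *elav* also lay above the controls, and *Syt1* overlapped. The 3 muscle markers summed to 143 to 145 CPM in knockdown libraries and 46.7 to 61.8 CPM in controls, with *Mhc* and *Mlc2* called higher and *Act57B* called lower (log2 fold change -0.99). The 3 tracheal markers summed to 995 to 1098 CPM in knockdown libraries and 591 to 848 CPM in controls, most of it *verm*, which was called higher. The other tracheal markers, *btl* and *trh*, were called lower, with log2 fold changes of -0.56 and -0.84. No marker of these lists was at 0 in any library. The part of stage or of other cell types in the responses of the replication genes was not tested.

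Another 31 genes of replication, not among the 37, gave 29 matched and 27 tested genes. *Orc3* had 0 reads in each library and shares 100% of its exon length with *CG34315*, and *Nap1* was removed as low. Of the 27 tested, 1 was called higher, *RPA3*, beside 15.6% of all genes, and 0 were called lower, beside 11.0%, also in DESeq2 and voom, although 3 were lower at an unadjusted p under 0.05. At an adjusted p under 0.05 at any fold 10 were higher, beside 34.1% of all genes, and 3 lower, beside 31.7%. After *RPA3* the highest was *Cdc7*, the kinase that activates MCM, at 44.7, 50.1 and 41.1 CPM in knockdown libraries, against 33.9, 33.2 and 33.1 CPM in control libraries (log2 fold change 0.44 ± 0.07, adjusted p = 0.00157). The lowest were *Top1*, a topoisomerase that relaxes DNA ahead of the fork, and *Caf1-55*, the small subunit of CAF-1. *Top1* was at 329, 323 and 317 CPM in knockdown libraries, against 343, 378 and 384 CPM in control libraries, a log2 fold change of -0.19. *Caf1-55* had a log2 fold change of -0.18 (adjusted p = 0.00354). Without control replicate 1 *Chrac-14*, which encodes a histone-fold protein of polymerase epsilon, was also called and 2 were higher. The median log2 fold change of the 27 was 0.16, beside 0.17 for the 35 members.

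Regulators of S-phase entry were compared beside the replication genes. Of 17 tested genes 2 were called higher, beside 15.6% of all genes, and 2 lower, beside 11.0%. At an adjusted p under 0.05 at any fold 3 were higher, beside 34.1% of all genes, and 7 lower, beside 31.7%. The knockdown libraries lay above all controls for 3 genes, beside 37.7% of all genes, and below them for 8, beside 35.2%. The log2 fold change was negative for 12 of the 17, with a median of -0.10. *pic*, the DDB1 subunit of the ligase that degrades Cdt1, was at 401, 380 and 378 CPM in knockdown libraries, against 247, 247 and 246 CPM in control libraries (log2 fold change 0.65 ± 0.03, adjusted p = 8.94e-06). *Myc*, a driver of growth, was at 305, 267 and 286 CPM in knockdown libraries, against 195, 182 and 182 CPM in control libraries. Its log2 fold change was 0.62 ± 0.06 (adjusted p = 0.000115), and other genes overlap 61.2% of its exon length. The study, from these same libraries, describes *Myc* and *CycE* as not strongly raised, so that their values here are not independent of it. *Cdk4*, the partner of cyclin D, was at 69.1, 72.7 and 68.9 CPM in knockdown libraries, against 102, 108 and 108 CPM in control libraries (log2 fold change -0.59 ± 0.04, adjusted p = 2.39e-05). *E2f2*, the repressing E2F, was at 41.5, 44.0 and 42.9 CPM in knockdown libraries, against 58.9, 62.4 and 63.0 CPM in control libraries (log2 fold change -0.52 ± 0.04, adjusted p = 6.46e-05), and shares 19.9% of its exon length with *Mpp6*. The call of *E2f2* was lost with upper-quartile scaling, and both *E2f2* and *Myc* lost theirs in glmTreat. *E2f1*, the activating E2F, had a log2 fold change of -0.04 (95% interval -0.12 to 0.03). Its partner *Dp* had one of -0.13 (adjusted p = 0.0123), below the fold threshold. *CycE*, the cyclin that starts S phase, had one of -0.39 (adjusted p = 0.0059), below the fold threshold.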

How the data were processed

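Polyadenylated RNA of wing discs was sequenced from 3 *Nup98-96* RNAi and 3 *white* RNAi libraries, grouped and numbered by their titles. The authors aligned reads to BDGP6 with Rsubread and deposited counts per gene from featureCounts, without strand and not normalized. Reads of overlapping genes therefore cannot be told apart by strand. FastQC, featureCounts, limma and edgeR 3.13.4 are named in the submitters' processing notes. The authors' table of comparisons holds log2 fold changes, average expression, t, p-values and log-odds, of which none was used. Only its gene symbols were read, which named *Orc1* and *RPA2* among the members. That table lists only genes at an adjusted p under 0.05.

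Symbols came from a BDGP6 annotation for 17253 of 17559 genes and from that table for 120 more. Of 4884 genes with a position in both, 4831 had the same one. Genes were kept where a library exceeded 193.97 TMM-normalized counts, the maximum of a Jaccard similarity index over thresholds from 1 to 200 in 100 steps (loess span 0.3, rewritten here), near the top of that range. The 7965 genes kept were fitted with edgeR 4.0.16 in R 4.3.3 (TMM, glmQLFit and glmQLFTest). The fit was also run on simulated counts that held no outlying library, and their outcome is not used here. Intervals are 95%. Log2 ratios of counts used a pseudocount of 0.5. Alternatives were RLE, upper-quartile or library-size scaling, filterByExpr, no filter, DESeq2 1.42.0, voom (limma 3.58.1), no minimum fold change, glmTreat, the replicate block and leaving out each library. Replicates of a group were further apart than counting noise allows (chi-square over its degrees of freedom was 16.0 to 165 for the pairs), and each library was kept as 1 sample.

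Members and lists were chosen with earlier results of these data known. Values in every library are given for members that were called or had an adjusted p under 0.05 and for at least 1 member of each role. Of the other lists, called genes and those with the 2 highest and 2 lowest log2 fold changes are named. *E2f1*, *Dp*, *CycE*, *Orc4* and *Chrac-14* were chosen after their values were seen.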

Additional observations from a re-analysis of the deposited data

How the results depend on the processing

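Of the 35 tested replication genes, 5 were called higher and 0 lower under each alternative, except 15 higher and 1 lower with no minimum fold change and 6 higher without control replicate 1 (leave-one-out range 5 to 6). Of the other 27 replication genes, 10 were higher and 3 lower with no minimum fold change, and leaving out a library gave 1 to 2 higher. Of the 17 S-phase entry genes, 1 was higher and 1 lower in glmTreat, 1 lower with upper-quartile scaling and 7 lower with no minimum fold change, and leaving out a library gave 2 to 3 higher. Over all genes, 1245 were higher, against 1873 with filterByExpr, 1950 with no filter and 2717 with no minimum fold change, which also called 2526 lower. The sign turned only on leaving out a library, where the ranges were -0.14 to 0.0068 for *Psf1*, -0.0013 to 0.087 for *Psf3*, -0.033 to 0.14 for *PolE1*, -0.042 to 0.095 for *RfC3*, -0.0091 to 0.064 for *RfC38* and -0.074 to 0.038 for the *Prim1* over *Prim2* ratio. The cause was not tested. With the replicate block 5 members were higher and 0 lower. Deviations of same-numbered libraries from their group means correlated at -0.167, 0.000687 and 0.0124. With 3 libraries per group these values cannot tell whether same-numbered libraries were handled together. Promoter motifs were not counted here. The lowest member count was 651, and intervals rest on 3 libraries per group.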
